A study of Mus musculus with 6 samples.

Results

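The cytosolic ribosomal protein genes encode the protein subunits of the ribosome that translates nuclear messages. They were measured in 32D cells, an interleukin-3-dependent mouse bone marrow line of the strain C3H/HeJ that came from an animal infected with Friend leukemia virus. Members were the probe sets of the Affymetrix Mouse Genome 430 2.0 array that carry a single gene symbol of the Rpl, Rplp or Rps families, or Rpsa, without pseudogenes and without the Rps6 kinases. These were 46 of 18193 genes that have a probe set of 1 symbol, through 100 of 45037 probe sets that are not controls. The large subunit had 44 probe sets for 24 genes and the small subunit 56 for 22 genes. A further 110 probe sets carry a ribosomal protein symbol beside other symbols, mostly of pseudogenes, and were not members. The symbol rule used no measured value.

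The 6 samples were 3 mock-transduced ones, labelled with the retroviral vector MSCVpuro, and 3 transduced with Nup98::Nsd1, a fusion of a nuclear pore gene and a histone methyltransferase gene that occurs in acute myeloid leukaemia. The study asked how the fusion alters gene expression in these cells. Strain and parental line were the same in both groups, and the labels state neither whether the transduced cells were a clone or a pool nor the level of the fusion. Total RNA of each sample was hybridised to 1 array. The labels do not state separate cultures, and p-values here cover the spread among these 6 samples and nothing wider; that spread may be technical.

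A ribosome joins a small subunit, which reads the message, and a large subunit, which links the amino acids. Each holds ribosomal RNA and many proteins, nearly all present in a single copy, which are made in matching amounts and assembled in the nucleolus. Most ribosomal protein messages begin with a run of pyrimidines, the 5′ terminal oligopyrimidine tract, through which the growth-controlling kinase mTORC1 sets their translation. Messages of this family are among the most abundant in growing cells. A few genes have paralogues of restricted use, and loss of a copy of several members causes Diamond-Blackfan anaemia, a failure of red cell production.

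The arrays differed between the groups in ways that bear on a family of bright probe sets. The deposited scaling had set the trimmed mean signal to 500.003 on every array. The share of Present calls was 45.0% to 45.8% in the mock group and 47.5% to 48.2% in the Nup98::Nsd1 group. Actb probe sets at the 3′ end read 1.18 ± 0.031 times those at the 5′ end in mock and 1.47 ± 0.026 times in Nup98::Nsd1 samples (mean ± SD, n = 3 each), a measure of how intact or fully copied the RNA was, and the Gapdh ratios were 0.760 ± 0.016 and 0.816 ± 0.024. The 9 hybridization controls, bacterial and phage transcripts added to each labelled sample, stood 0.40 higher on the log2 scale on the Nup98::Nsd1 arrays. Of the markers of the myeloid progenitor type, 8 of 10 were tested, with Kit and Cd34 called Absent on all arrays, and their summed signal was 57102 to 60763 in mock and 31802 to 32580 in Nup98::Nsd1 samples. Mpo (-1.88), Ms4a3 (-2.36), Prtn3 (-0.92) and Elane (-1.30) fell, Cebpa (0.87), Spi1 (0.32) and Csf2rb (0.17) rose, the last 2 turning to -0.082 and -0.23 with the hybridization controls and Csf2rb to -0.030 and -0.0036 under both centrings, and Ctsg was not called (0.050). The erythroid markers (3 of 7 tested, Alas2 and Hba-a1 Absent throughout) summed to 11181 to 11373 and 4489 to 4598. Most of these sums came from Tfrc alone, at 10626 to 10885 in mock and 4082 to 4224 in Nup98::Nsd1 samples. Tfrc (-1.38) and Klf1 (-0.95) fell, and Epor was not called (0.0995). The megakaryocyte markers (3 of 5 tested, Gp1bb Absent throughout) summed to 3530 to 3672 and 9320 to 9722. None of the 6 T cell markers was tested (Cd3e and Cd4 Absent throughout), with sums of 214 to 232 and 156 to 180. Of 6 B cell markers 2 were tested and not called (Cd79a and Pax5 Absent throughout), with sums of 447 to 511 and 448 to 515. None of the 6 fibroblast markers was tested (Col1a2 and Dcn Absent throughout), with sums of 126 to 198 and 132 to 192. The part of these differences in the results for ribosomal proteins was not tested. In bulk RNA, fewer cells of a type and less RNA per cell cannot be told apart.

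Ribosomal protein probe sets were higher in Nup98::Nsd1 samples in the signals as deposited. Of the 90 members tested, 72 rose and 10 fell at an adjusted p under 0.05 in limma, or 80.0% and 11.1%, where 42.3% of all 20494 tested probe sets rose and 27.6% fell; these shares depended on the scaling of the arrays, as given further on. The median log2 difference, Nup98::Nsd1 minus mock, was 0.31 over the members and 0.15 over all tested probe sets. By gene, each read from the brightest of its tested probe sets, 38 of 41 rose, Rps25 and Rps27l fell and Rpl12 was not called, against 42.9% of all genes that rose and 29.5% that fell. Testing required Present calls throughout at least 1 group, and 89 of the 90 were Present on all 6 arrays. The other, the brightest probe set of Rpl41, was Present on 1 mock array and all 3 Nup98::Nsd1 arrays, so it passed only through the group where it was higher. Without it 71 of 89 members rose. With Rpl41 read from its next brightest probe set, an alternative chosen after seeing the data, 37 of 41 genes rose.

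Groups did not overlap for most members. In 69 of 90 members every Nup98::Nsd1 signal lay above every mock signal and in 10 every one lay below, compared with 44.4% and 28.9% of all tested probe sets. The median signal of the members was 20966, 22058 and 23357 on the mock arrays and 28349, 27943 and 28952 on the Nup98::Nsd1 arrays. Their share of all signal summed over an array was 4.73% ± 0.16 in mock and 5.80% ± 0.034 in Nup98::Nsd1 samples (mean ± SD, n = 3 each), and with the probe sets of shared symbols 10.6% ± 0.41 and 13.06% ± 0.063. These are shares of signal, which also depend on the probes, and not shares of RNA.

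**Figure D1:**
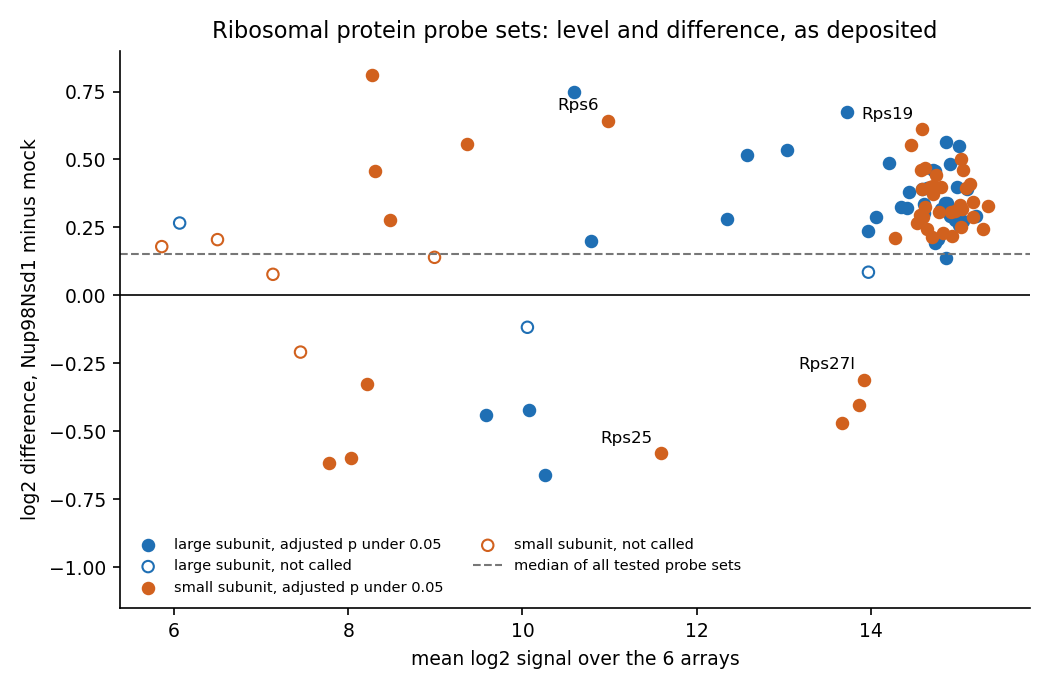
Log2 difference between Nup98::Nsd1 and mock samples (y) against mean log2 signal over the 6 arrays (x) for the 90 tested ribosomal protein probe sets, as deposited; colour gives the subunit, filled points passed limma's adjusted p under 0.05, and the dashed line is the median of all tested probe sets, 0.15. All 60 points over a log2 signal of 14 lie between 0.14 and 0.61, while the 21 at or under 12 spread in both directions; with scaling to the hybridization controls the median of the members is -0.091.

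Brightness separated the members into a tight group and a scattered one. All 60 members with a mean log2 signal over 14, from 33 genes, rose, by 0.14 to 0.61 on the log2 scale with a median of 0.33. But with scaling to the hybridization controls 8 of these 60 rose and 26 fell. These were 13.3% and 43.3%, beside 21.3% and 49.2% of all tested probe sets. Other probe sets of this brightness, without those that carry a ribosomal protein symbol beside others, did not all rise. Of these 145 over 14, 69 rose and 39 fell as deposited, with a median of 0.095. With the hybridization controls 16 of them rose and 106 fell (11% and 73.1%). Over a log2 signal of 12, 65 of 69 members rose and 3 fell, all 3 of Rps27l. Of 1677 other probe sets, again without those of shared symbols, 530 rose and 873 fell (medians 0.33 and -0.14). Of the 21 members at or under 12, 7 rose and 7 fell (median 0.14). These bounds were chosen after the data were seen.

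The direction of the family depended on how the arrays were scaled. After quantile normalization 34 members rose and 19 fell, where 33.3% and 33.8% of all tested probe sets did. With each array centred on its 75th percentile the counts were 38 and 12 (31% and 38.1% of all), and with centring on the median 45 and 12 (32.4% and 36.5% of all). Scaled to the hybridization controls, 12 members rose and 42 fell, where 21.3% of all tested probe sets rose and 49.2% fell. The members' median log2 difference was 0.033, 0.11, 0.14 and -0.091 in that order, and that of all tested probe sets -0.009, -0.045, -0.018 and -0.25. Each centring moves all probe sets alike, so the members' median stayed 0.16 above that of all tested probe sets under those settings, and was 0.042 above it after quantile normalization, which gives the brightest probe sets of every array the same values. Under each of the 5 scalings the median member thus stood above the median tested probe set, on either side of 0, although after quantile normalization the members with plain probe set names did not (-0.062 against -0.009).

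**Figure D2:**
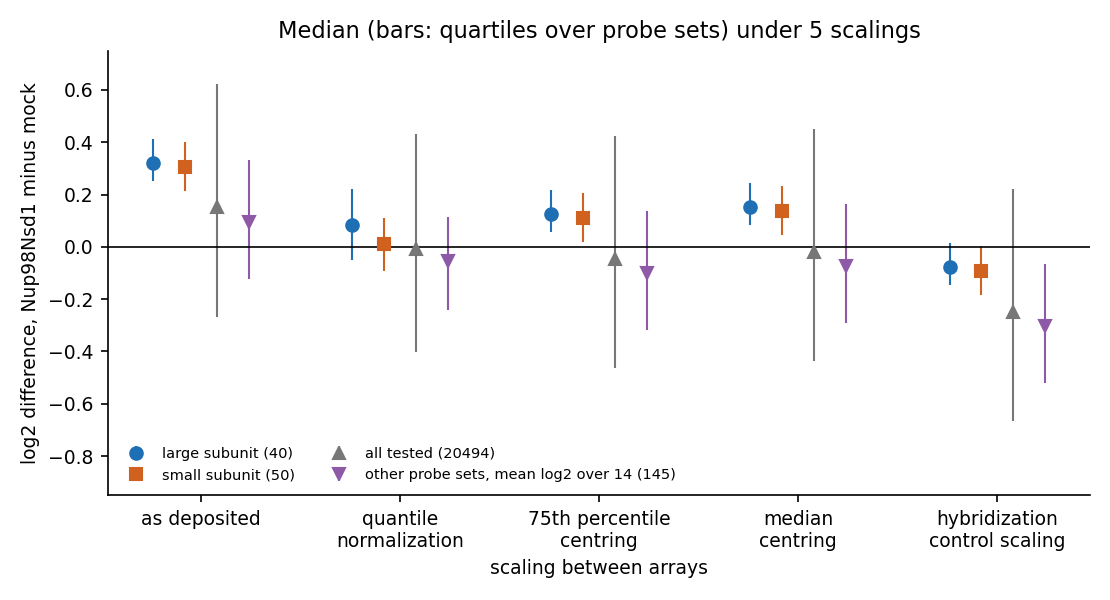
Median log2 difference, Nup98::Nsd1 minus mock (y), under 5 scalings of the arrays (x). Sets are the 40 large and 50 small subunit probe sets, all 20494 tested probe sets and 145 other probe sets over a mean log2 signal of 14. The 145 leave out probe sets that carry a ribosomal protein symbol beside others. Bars are quartiles over probe sets, not errors. Both subunits lie above the other sets under each scaling, but above 0 under 4 scalings and below 0, at -0.079 and -0.093, when scaled to the hybridization controls.

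Within the mock group the members shifted with the hybridization controls. Relative to the mock mean, the median member stood at -0.052, 0.006 and 0.049 on the log2 scale on mock replicates 1, 2 and 3, and the hybridization controls at -0.052, 0.0028 and 0.049. All tested probe sets stood at 0.0028, 0.0007 and 0.0012. Bright genes outside the family also moved over the mock arrays, though not all one way. Eef1a1 was at 29517, 32420 and 36360, Npm1 at 23599, 24827 and 26722 and Eif4a1 at 22404, 23311 and 25476. Eif4g2 went down, at 19107, 18590 and 18089. Whether the shift is particular to the family was not tested. On the Nup98::Nsd1 arrays the median member stood at 0.33, 0.30 and 0.30, the controls at 0.39, 0.40 and 0.41 and all tested probe sets at 0.16, 0.16 and 0.14. Of the 90 tested members, 61 had their lowest mock signal on replicate 1 and 58 their highest on replicate 3. The spread between replicates was smaller on the Nup98::Nsd1 arrays: the median SD of log2 signals over the members was 0.083 in mock and 0.035 in Nup98::Nsd1 samples, against 0.097 and 0.095 over all tested probe sets. Outside the family, the SD of the signal went from 3435 to 657 for Eef1a1 and from 509 to 457 for Eif4g2.

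**Figure D3:**
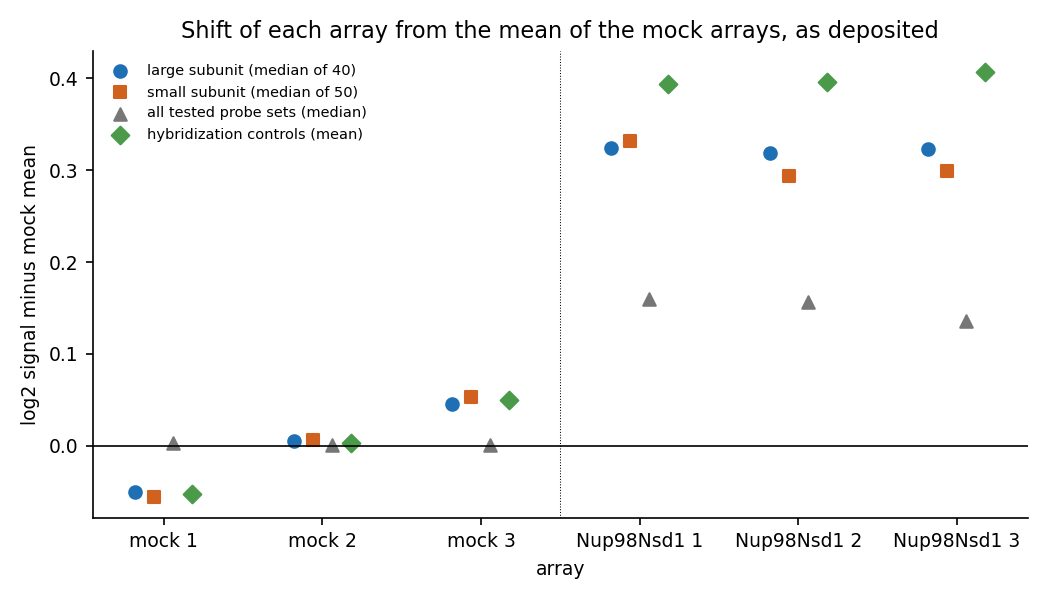
Shift of each array from the mock mean in log2 signal (y) on the 6 arrays (x), as deposited: medians of the large and small subunit probe sets and of all tested probe sets, and the mean of the 9 hybridization controls. Members and controls move together from -0.052 to 0.049 over the mock arrays, where all tested probe sets stay within 0.0007 and 0.0028. On the Nup98::Nsd1 arrays members lie near 0.31 and controls near 0.40; relative to the controls the members are lower.

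Large and small subunit probe sets differed from mock by similar amounts. Of 40 large subunit probe sets 34 rose and 3 fell (85% and 7.5%, median 0.32), and of 50 small subunit probe sets 38 rose and 7 fell (76% and 14%, median 0.31). Over all tested probe sets 42.3% rose and 27.6% fell. Under the scaling to hybridization controls the counts were 6 and 18 of the large (15% and 45%) and 6 and 24 of the small subunit (12% and 48%). The shares of falls lay near the 49.2% of all tested probe sets that fell there, where 21.3% rose. Subtracting the small subunit median from the large gave 0.014 as deposited. The same difference of shifts between subunits, taken array by array, was -0.0073, 0.025 and 0.024 on the Nup98::Nsd1 arrays and 0.0045, -0.0012 and -0.0075 on the mock arrays, so the groups overlapped. Leaving out 1 array moved the 0.014 to between 0.0018, without mock replicate 2, and 0.032, without Nup98::Nsd1 replicate 3. It was 0.073 after quantile normalization and -0.033 with 1 probe set per gene, where 20 of 21 large and 18 of 20 small subunit genes rose, with medians of 0.30 and 0.34. The sign of the difference between subunits thus changed with how probe sets were counted. Their shares of summed signal went from 2.10% ± 0.065 to 2.61% ± 0.014 for the large and from 2.63% ± 0.098 to 3.19% ± 0.026 for the small subunit.

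Calls held under each of the 5 scalings for 22 members, 12 higher and 10 lower of 90. Over all tested probe sets 21.2% rose and 26.1% fell under each scaling, larger shares than among the members in both directions. The 12 that rose under each came from 10 genes: Rpl10a, Rpl13a with 3 probe sets, Rpl22, Rpl35, Rps3, Rps6, Rps10, Rps15, Rps18 and Rps19. The 10 that fell under each came from 6 genes: Rps27l with 3 probe sets, Rps20 and Rpl41 with 2 each, and Rps25, Rps18 and Rpl37a. Every member that fell as deposited was among the latter.

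In the large subunit, with each gene read from its brightest tested probe set, the largest rises were those of Rpl10a, a protein near the exit site for transfer RNA, and Rpl13a, known also for silencing inflammatory messages once released from the ribosome. Rpl10a had signals of 23150, 24837 and 25362 in mock and of 38156, 35067 and 35351 in Nup98::Nsd1 samples (log2 difference 0.57, SE 0.049, adjusted p = 1.003e-06). Rpl13a gave 26645, 27481 and 28048 against 39286, 40962 and 39988 (0.55, SE 0.040, adjusted p = 2.23e-07). Both were well separated, and they kept their calls under all 5 scalings, the smallest values being 0.17 and 0.15 with scaling to the hybridization controls. The other 3 probe sets of Rpl13a rose by 0.49, 0.53 and 0.67. Rpl37, a zinc-binding protein, went from 5334, 5505 and 4556 to 7315, 7037 and 7627 (0.52, SE 0.065, adjusted p = 2.38e-05), with 0.12 and no call under the hybridization controls.

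The stalk of the large subunit, where elongation factors dock, is built from Rplp0, which forms its base, and copies of Rplp1 and Rplp2. Rplp0 was at 28857, 30736 and 33460 in mock and at 38745, 36652 and 37038 in Nup98::Nsd1 samples (log2 difference 0.28, SE 0.054, adjusted p = 0.000694), but at -0.080 after quantile normalization and -0.12 with the hybridization controls. Rplp2 went from 28643, 30828 and 33173 to 40427, 39482 and 41291 (0.39, SE 0.052, adjusted p = 4.03e-05), and stood at -0.009 with the hybridization controls. No member probe set represents Rplp1; the one shared with the pseudogene Gm13777 stood at 0.26 as deposited and -0.14 with the hybridization controls. The groups did not overlap for either stalk member, and the mock arrays were spread over a wider range than the Nup98::Nsd1 arrays.

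Rpl11 forms, with Rpl5 and the 5S RNA, the particle that can bind Mdm2 and so stabilise p53 when ribosome assembly is disturbed. It went from 21867, 22149 and 23067 to 28686, 29850 and 29547 (0.39, SE 0.040, adjusted p = 3.63e-06), and to -0.0059 with the hybridization controls. Rpl5 has only probe sets shared with the pseudogene Rpl5-ps2, at 0.32, -0.073 and -0.24.

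Rpl22, which general translation can spare and T cell development needs, rose at its 3 probe sets, and the increase was uneven. The dimmest, which rose further than the brightest probe set of any large subunit gene, was at 1180, 1239 and 1159 in mock and 2216, 1877 and 1930 in Nup98::Nsd1 samples. It rose by 0.75 (SE 0.066, adjusted p = 1.28e-06) and kept its call under each scaling. Those at 26809 ± 658 and 33884 ± 244 (mean ± SD, n = 3 each; log2 difference 0.34, adjusted p = 9.08e-06) and the remaining one, at 0.32, turned to -0.061 and -0.075 with the hybridization controls. Rpl22l1, its paralogue and outside the symbol rule, went from 8828, 9773 and 9414 to 17099, 16247 and 15871 (0.81, SE 0.048, adjusted p = 4.09e-08), and was 0.41 under the hybridization controls. Both paralogues were thus higher, without overlap of the groups.

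By brightest tested probe set, the remaining large subunit genes all rose as deposited apart from Rpl12. Rpl38, whose loss in the mouse disturbs the axial skeleton, had signals of 30982, 34506 and 36904 in mock and 41797, 41589 and 41725 in Nup98::Nsd1 samples, a log2 difference of 0.29 (adjusted p = 0.000678) that turned to -0.035 after quantile normalization and -0.11 with the hybridization controls. Rpl12, which sits at the base of the stalk, had 1 member probe set at 1136, 1087 and 1105 in mock and 1017, 1117 and 941 in Nup98::Nsd1 samples. Its groups overlapped and it was not called (-0.12, adjusted p = 0.146), although it was called lower without Nup98::Nsd1 replicate 2 (-0.18) and under each other scaling, from -0.19 after quantile normalization to -0.52 with the hybridization controls. The 2 probe sets that Rpl12 shares with predicted genes were at 0.31 and 0.36 as deposited, and at -0.092 and -0.039 with the hybridization controls. Over the large subunit the 20 genes that rose did so by 0.14 to 0.57.

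In the small subunit, read in the same way, the largest rises were those of Rps6, the substrate of the S6 kinases downstream of mTORC1, Rps19, the gene most often mutated in Diamond-Blackfan anaemia, and Rps15, whose tail reaches the decoding site. Rps6 had signals of 1606, 1645 and 1596 in mock and 2475, 2541 and 2554 in Nup98::Nsd1 samples (log2 difference 0.64, SE 0.045, adjusted p = 1.68e-07). Rps19 gave 19132, 19849 and 20788 against 30029, 29987 and 31291 (0.61, SE 0.043, adjusted p = 1.8e-07). Rps15 gave 18070, 19104 and 18736 against 27617, 28078 and 26317 (0.55, SE 0.042, adjusted p = 3.29e-07). Under the hybridization controls, the setting with the smallest values, they stood at 0.24, 0.21 and 0.15 and were still called higher. The dimmer tested probe set of Rps15 rose less, by 0.21 (adjusted p = 0.0318), and was at -0.19 under that setting. Rps6 is measured here by a dim probe set, and its shared probe sets with the pseudogene Rps6-ps4 ranged from 0.26 to 0.72 as deposited and from -0.13 to 0.33 with the hybridization controls. The bright ones among these stood lower, at 0.28, 0.26, 0.40 and 0.36 as deposited. With the hybridization controls they were under 0, at -0.12, -0.13, -0.0019 and -0.042. So the large rise of Rps6 rests on dim probe sets.

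Rps18, a protein of the head of the small subunit, went from 27615, 28224 and 28474 to 40381, 40426 and 38623 (0.50, SE 0.039, adjusted p = 4.16e-07), and was 0.10 and still called under the hybridization controls. Rpsa, which also serves as a laminin-binding protein of the cell surface, went from 26923, 29454 and 30912 to 40414, 39983 and 39708 (0.46, SE 0.050, adjusted p = 6.94e-06), with 0.064 and no call under that setting. Rps4x, the X-linked copy of its family, was at 31062, 31950 and 35343 in mock and 42586, 42857 and 39218 in Nup98::Nsd1 samples (0.34, SE 0.055, adjusted p = 0.000167), and at -0.056 under that setting. Rps29, a zinc-binding protein also mutated in Diamond-Blackfan anaemia, went from 35111, 37310 and 39347 to 47554, 46763 and 46052 (0.33, SE 0.047, adjusted p = 6.01e-05), and to -0.069 under it. Groups did not overlap for these 4 genes as deposited. A dimmer probe set of Rps3, which lies near the entry of the message channel, rose further than any of these, from 217, 245 and 242 to 437, 358 and 444 (0.81, SE 0.12, adjusted p = 7.12e-05), and was 0.41 and still called under the hybridization controls, while the brightest of Rps3 rose by 0.46 and was 0.062 and not called there. By brightest probe set, the 18 small subunit genes that rose did so by 0.22 to 0.64.

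**Figure D4:**
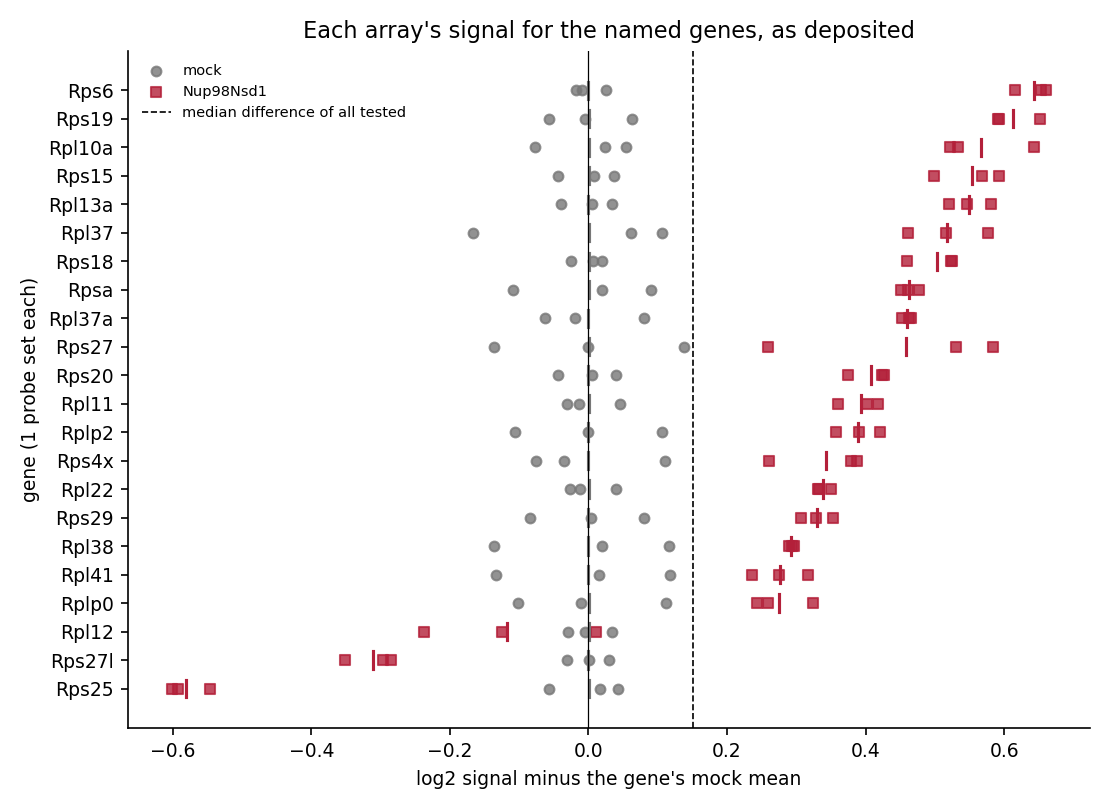
Signal of each array as log2 minus the gene's mock mean (x) for the named genes (y), as deposited; circles are the 3 mock arrays, squares the 3 Nup98::Nsd1 arrays, short bars group means and the dashed line the median difference of all tested probe sets, 0.15. Groups overlap only for Rpl12, and Rps27l and Rps25 lie to the left; with scaling to the hybridization controls Rplp0, Rplp2, Rpl11, Rps4x, Rpl22, Rpl38, Rpl41 and Rps29 fall to the left of 0 as well.

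Rps27l was the clearest exception. This paralogue of Rps27 is a target of p53 and is used alongside Rps27 in the ribosome. Its 3 probe sets went from 17597, 17247 and 16871 to 14033, 13511 and 14139, from 17423, 17446 and 16612 to 13286, 12717 and 12932, and from 15497, 15391 and 15235 to 11222, 10940 and 11104. These were falls of the log2 signal of -0.31 (SE 0.039, adjusted p = 2.13e-05), -0.40 (adjusted p = 2.9e-06) and -0.47 (adjusted p = 3.71e-07), which held under each scaling, from -0.25 after quantile normalization to -0.87 with the hybridization controls. Rps27 itself has 1 dim member probe set, at 271, 246 and 298 in mock and 406, 324 and 391 in Nup98::Nsd1 samples (0.46, SE 0.12, adjusted p = 0.00538), a rise that no other scaling called. The bright probe set that Rps27 shares with Rps27rt went from 15895, 16825 and 17828 to 28138, 28099 and 29062 (0.76, adjusted p = 6.3e-08) and was 0.36 with the hybridization controls. Under each of the 5 scalings the probe set of Rps27 and Rps27rt was higher and those of Rps27l were lower.

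Rps25, which initiation at several internal ribosome entry sites needs, fell at its only member probe set from 3635, 3826 and 3894 to 2494, 2589 and 2508 (-0.58, SE 0.044, adjusted p = 3.73e-07). The fall held under each scaling, from -0.48 after quantile normalization to -0.98 with the hybridization controls. The bright probe set shared with 2 predicted genes and Rps25 went the other way, from 19553, 20802 and 22681 to 24591, 24553 and 24433 (0.23, adjusted p = 0.00202), and to -0.17 with the hybridization controls. Which of them reads the main Rps25 message was not determined here, as probe positions were not used.

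Probe sets of the same gene disagreed in 4 genes, with at least 1 bright one called higher and at least 1 dim one called lower. For Rps20, a small subunit head protein, 2 bright probe sets rose by 0.41 and 0.40 as deposited (30287, 31347 and 32107 in mock against 41979, 41902 and 40500 for the first). The 2 dim ones fell, from 301, 241 and 277 to 175, 179 and 177 (-0.62, adjusted p = 0.00106) and from 329, 334 and 307 to 205, 192 and 247 (-0.60, adjusted p = 0.00113). Rpl37a, a zinc-binding protein, rose by 0.46 and 0.33 at bright probe sets and fell from 1564, 1575 and 1488 to 1046, 920 and 960 at a dim one (-0.66, adjusted p = 1.91e-06). Rpl41, a very short basic peptide, went from 26462, 29332 and 31488 to 36173, 34198 and 35106 at its brightest (0.28, adjusted p = 0.00118; -0.046 after quantile normalization and -0.12 with the hybridization controls). That probe set was Present on 1 mock array alone, and the next brightest was not called (0.085, adjusted p = 0.109). Rpl41 fell by 0.44 and 0.42 on the log2 scale at 2 dim ones (-0.44 and -0.42; adjusted p = 0.00369 and 0.001). Rps18 rose at 3 bright probe sets and fell at a dim one, from 290, 326 and 386 to 281, 229 and 288 (-0.33, adjusted p = 0.0495). Its other dim tested probe sets were not called (0.077 and 0.205). The falls at the dim probe sets held under each scaling. With the hybridization controls the bright ones that rose were at 0.0092 and -0.003 for Rps20, 0.061 and -0.064 for Rpl37a, and -0.12 for Rpl41. Those of Rps18 were at 0.10, -0.028 and -0.073, the first still called higher.

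Not every member could be tested. Of the 10 left out, 8 were Absent on all 6 arrays: those of Rpl3l, the muscle paralogue of Rpl3, Rpl39l, the testis paralogue of Rpl39, Rps4l and Rps16, and further probe sets of Rpl27a, Rps3, Rps4x and Rps6. A probe set of Rpl39 was Present on 1 array of each group, at 163, 312 and 237 in mock and 347, 238 and 313 in Nup98::Nsd1 samples, and one of Rps24 on 1 mock array. Signals of Rpl3l lay between 5.36 and 61.9 and those of Rpl39l between 3.07 and 28.3 over the 6 arrays, with overlapping groups. For Rpl39 and Rps16 the bright probe sets shared with other symbols stood at 0.38, and at 0.46 and 0.39. The parents Rpl3 and Rpl10 have shared probe sets alone: for Rpl3 one at 0.39 and one at -0.90, and for Rpl10 at 0.25 and 0.27 as deposited. With the hybridization controls the values in the last 2 sentences were -0.020 for Rpl39, 0.061 and -0.0091 for Rps16, -0.011 and -1.29 for Rpl3 and -0.15 and -0.13 for Rpl10. Rps27a, which is made as a fusion with ubiquitin, had no member probe set.

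Probe sets that carry further symbols gave the same picture. Of 106 tested, 90 rose and 4 fell with a median of 0.33, and with scaling to the hybridization controls 11 rose and 43 fell (median -0.073). Since probes of these sets can read processed pseudogenes and near-identical copies, their signals are not assigned to a gene here. Members are open to the same uncertainty, as 69 of the 100 have names that mark probes shared between transcripts (40 end in _x_at, 26 in _a_at and 3 in _s_at). Among the 22 tested members with plain names, 12 rose and 4 fell (54.5% and 18.2%, against 42.3% and 27.6% of all tested), with a median of 0.21. With the hybridization controls 2 rose and 12 fell (9.09% and 54.5%, against 21.3% and 49.2%; median -0.19). After quantile normalization 6 rose and 8 fell (27.3% and 36.4%, against 33.3% and 33.8%), and their median of -0.062 lay below that of all tested, -0.009.

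The start sites of the genes with the largest differences are shown because the pyrimidine tract that links this family to mTORC1 begins there. Each is the window from 20 bases before the annotated start site on, 40 bases in all, read 5′ to 3′ on the gene's strand in RefSeq's GRCm38.p6. Capitals mark the first tract alone. A tract is a C and at least 4 further pyrimidines with the C within 10 bases of the start site on either side. It can therefore end before that site, outside the annotated message. The first 8 are the genes with the largest rises, and the last 2, Rps25 and Rps27l, those that fell, all by the brightest tested probe set of each gene; other probe sets of Rps3 and Rpl22 rose further, and dim ones of Rps20, Rpl37a, Rpl41 and Rps18 fell.
Rps6 (chr4:86857348-86857387, minus strand): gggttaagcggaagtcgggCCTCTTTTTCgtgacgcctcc
Rps19 (chr7:24884572-24884611, plus strand): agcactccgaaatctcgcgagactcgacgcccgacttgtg
Rpl10a (chr17:28328451-28328490, plus strand): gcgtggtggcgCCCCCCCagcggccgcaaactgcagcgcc
Rps15 (chr10:80292411-80292450, plus strand): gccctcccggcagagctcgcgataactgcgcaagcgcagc
Rpl13a (chr7:45128726-45128765, minus strand): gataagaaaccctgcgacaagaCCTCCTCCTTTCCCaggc
Rpl37 (chr15:5116593-5116632, plus strand): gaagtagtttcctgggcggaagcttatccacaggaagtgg
Rps18 (chr17:33955646-33955685, minus strand): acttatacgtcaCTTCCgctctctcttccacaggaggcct
Rpsa (chr9:120127746-120127785, plus strand): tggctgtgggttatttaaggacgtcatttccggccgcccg
Rps25 (chr9:44407694-44407733, plus strand): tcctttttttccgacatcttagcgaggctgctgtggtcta
Rps27l (chr9:66946066-66946105, plus strand): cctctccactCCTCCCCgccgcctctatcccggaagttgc

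A tract was found in 4 of the 8 genes that rose most and in 1 of the 2 that fell. The first tract held 14 bases in Rpl13a, 10 in Rps6, 7 in Rpl10a, 5 in Rps18 and 7 in Rps27l. Those of Rpl10a, Rps18 and Rps27l end before the annotated start site, so by this annotation they are not part of the message. Rps18 has a longer pyrimidine run across the start site, left in lower case, that also meets the definition. Rps27l has a further one just after its start site. Rps25, counted without a tract, has a pyrimidine run that begins too far before its start site to meet the definition. Whether these annotated sites are the ones used in 32D cells was not measured. Promoters matched 40 of the 46 genes. A tract began within 10 bases of the start site, before or after it, in 24 of the 40 (60%), against 29.8% of 27025 promoters in the table. How many of these reach into the message was not counted. The ETS motif CCGGAA was found on either strand in 24 of 40 from 250 bases before to 50 after the start site (60%, against 15.2% of all), and GGGCGG, bound by SP1, in 21 (52.5% against 35.9%). AAGATGG, bound by YY1, was in 6 (15% against 6.48%), the E-box CACGTG, bound by Myc and Max, in 3 (7.5% against 7.24%) and TATAAA in 4 (10% against 14.2%). The ETS motif read on the other strand can overlap a tract. Among 22 large and 18 small subunit genes the shares were 63.6% and 55.6% for the tract, 59.1% and 61.1% for the ETS motif, 59.1% and 44.4% for SP1, 9.09% and 22.2% for YY1, 13.6% and 0% for the E-box and 9.09% and 11.1% for TATAAA. These differences were not tested. These are matches of letters, not measured sites.

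Genes tied to the members in other ways were read beside them, from lists that were chosen with earlier results of these data known. Over all genes 42.9% rose and 29.5% fell as deposited. The shares were 36.3% and 33.2% after quantile normalization, 30.3% and 40.9% with 75th percentile centring, 31.9% and 39.1% with median centring, and 20.1% and 53.4% with the hybridization controls. The 12 tested genes of 19 on the Diamond-Blackfan anaemia list all rose as deposited (median 0.36), with 1 higher and 6 lower under the hybridization controls. They are members themselves and so add no independent count. Ribosomal genes whose names fall outside the rule gave 3 rises in 4 tested: besides Rpl22l1, Fau, which encodes a ubiquitin-like fusion to a small subunit protein, was at 0.39 and Rps3a1 at 0.30, both under 0 with the hybridization controls (-0.0099 and -0.097), and Rps3a1 also after quantile normalization (-0.026). Rpl7l1, a relative of Rpl7, was lower at -0.097 (adjusted p = 0.0453), but at 0.045 after quantile normalization.

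Translation factors were mixed. Of 16 tested factors and other genes whose messages also start with a pyrimidine tract, 7 rose and 5 fell. These shares lay near the 42.9% and 29.5% of all genes, and the median was 0.054 beside 0.12 over all genes. With the hybridization controls 2 rose and 13 fell, where 20.1% of all genes rose and 53.4% fell. The elongation factor Eef2 went from 15801, 16799 and 16740 to 24608, 24075 and 24040 (0.56, SE 0.040, adjusted p = 2.03e-07), and was 0.16 with the hybridization controls. Eif2s3x, a subunit of the factor that brings the initiator transfer RNA, went from 9895, 9938 and 10528 to 5751, 5586 and 5648 (-0.84, SE 0.040, adjusted p = 9.67e-09), and Nap1l1, a histone chaperone, fell by 0.63 on the log2 scale (-0.63, adjusted p = 5.79e-07). Of 16 other initiation factors 6 rose and 8 fell (median -0.13), beside 42.9% and 29.5% of all genes. Under the hybridization controls 1 rose and 14 fell, beside 20.1% and 53.4% of all genes. The cap-binding protein Eif4e went from 7326, 7674 and 7943 to 4001, 3495 and 3789 (-1.02, SE 0.054, adjusted p = 1.8e-08), and the scaffold subunit Eif3b was at -0.62, while Eif3c, another subunit of the same factor, rose by 0.67. Eef2 and Eif3c stood higher, and Eif2s3x, Nap1l1, Eif4e and Eif3b lower, under each of the 5 scalings.

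Genes that build ribosomes differed in both directions. Of 18 tested genes for subunit assembly and export, 9 fell and 3 rose (median -0.20), beside 29.5% of all genes that fell, and between 10 and 15 fell under the other scalings, beside 33.2% to 53.4% of all genes. Pno1, which helps mature the small subunit, went from 4093, 4074 and 4165 to 1593, 1570 and 1733 (-1.33, SE 0.049, adjusted p = 1.34e-09). Heatr3, which helps import Rpl5, was at -1.10, and Pdcd2, a chaperone of Rps2, went the other way at 1.06 (adjusted p = 2.29e-08). Of 11 tested genes of RNA polymerase I, which transcribes ribosomal RNA, 4 fell and 2 rose (median -0.087), a share of falls near that of all genes: Polr1b was at -1.19, Rrn3 at -0.79 and Polr1e at -0.80, and with the hybridization controls 10 fell and 0 rose. Among 11 mTORC1 pathway genes 6 rose and 2 fell (median 0.39), beside 42.9% and 29.5% of all genes. Under the hybridization controls 4 rose and 5 fell, beside 20.1% and 53.4% of all genes. As deposited, Tsc2 was at 0.76, Tsc1 at 0.74, Eif4ebp1, a repressor of Eif4e, at 0.67 and Mtor at 0.60, while Eif4ebp2 was at -0.48. The list holds activators and repressors of the pathway, so these counts give no direction for its activity. Myc was not called as deposited (0.055, adjusted p = 0.275) but was higher after quantile normalization (0.20) and lower with 75th percentile centring (-0.14) and the hybridization controls (-0.34), and its partner Max was lower at -0.67 (adjusted p = 3.82e-06).

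The ribosome of mitochondria is built from a separate set of nuclear genes. Of 76 tested mitochondrial ribosomal protein genes 51 fell and 11 rose as deposited, with a median of -0.34. Over all genes 29.5% fell and 42.9% rose. Between 48 and 65 of the 76 fell under the other scalings, where 33.2% to 53.4% of all genes fell. Mrpl18 went from 6464, 6843 and 6555 to 3099, 2845 and 2849 (-1.18, SE 0.047, adjusted p = 2.37e-09), Mrpl50 stood at -1.10 and Mrps23 at -1.05. Their groups did not overlap. The median of the cytosolic genes was 0.32 as deposited and -0.080 with the hybridization controls, and their lowest gene, Rps25, was at -0.58. The cytosolic median lay above, and the mitochondrial median below, the 0.12 of all genes as deposited. Each centring moves all genes alike, so it could not have altered that order and is no check of it.

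**Figure D5:**
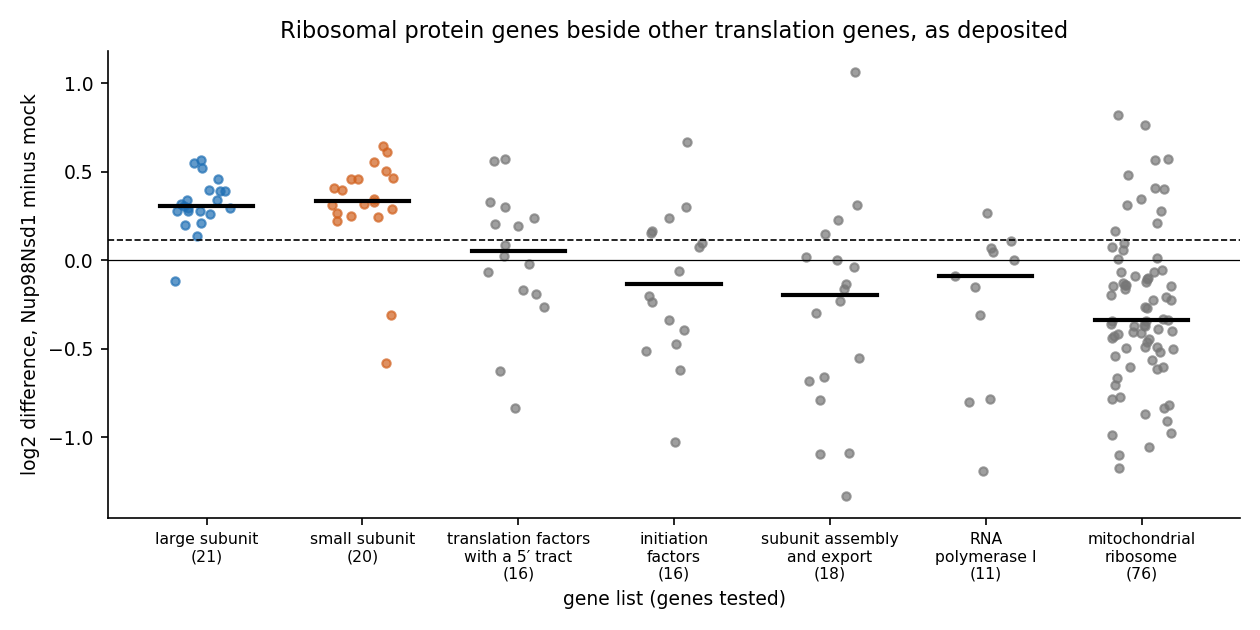
Log2 difference, Nup98::Nsd1 minus mock (y), as deposited, of the tested genes of each list (x), 1 point per gene with the number tested in brackets; thick bars are list medians, the solid line is 0 and the dashed line is the median of all genes, 0.12. Cytosolic genes of both subunits cluster at 0.30 and 0.34 apart from Rpl12, Rps25 and Rps27l, while the mitochondrial list has a median of -0.34; with scaling to the hybridization controls the cytosolic subunit medians are -0.095 and -0.062.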

How the data were processed

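RNA of 6 samples was measured on 1 array each. The authors computed signals with MAS5, per the submitters' processing notes. The deposited files list for every probe set an intensity, linear and scaled per array, with a detection p-value and a Present, Marginal or Absent call that the authors' software derived from it. Sources used here give neither the MAS5 version nor the scaling target. The deposited series matrix held the same intensity values (largest relative difference 5e-06).

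Symbols came from the platform annotation of 2016. Control probe sets (64) were left out, signals under 1 were set to 1, and log2 of the authors' intensities entered limma 3.58.1, run in R 4.3.3 (linear model, empirical Bayes with an intensity trend, Benjamini-Hochberg over the 20494 tested probe sets, threshold 0.05). Differences are Nup98::Nsd1 minus mock, with n = 3 each. The number of arrays limits the precision. An exact permutation test of 3 against 3 cannot go below p = 0.1. The fit was tested on simulated data.

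The members and gene lists were chosen with earlier results of these data known. Genes were named by a rule: the 8 largest rises and all falls by gene, stalk, 5S-particle and paralogue genes, Rps6, Rpsa, Rpl22 and Rps19, genes with opposite calls, untested members, the brightest and dimmest gene of each subunit, and up to 3 genes of each other list. Rps27rt, Fau and other genes beside these were named after their values were seen. Alternatives were a pseudocount of 16 or 64, 2 filters on detection, 4 scalings, the matrix, no trend, array weights, a replicate block, other choices of probe sets, and leaving out each array. Replicate numbers did not pair samples: deviations of same-numbered samples correlated at -0.017, -0.011 and 0.021. Protein sequences were not analysed here.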

Additional observations from a re-analysis of the deposited data

How the results depend on the processing

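Counts of members that rose or fell depended on the scaling and on which probe sets were counted. Beside 72 rises and 10 falls as deposited, quantile normalization gave 34 and 19, 75th percentile centring 38 rises, median centring 45 rises and hybridization control scaling 12 rises and 42 falls. For the large subunit the rises numbered 20, 19, 22 and 6 in that order and for the small subunit 14, 19, 23 and 6. Falls numbered 8 and 18 in the large and 11 and 24 in the small subunit with quantile normalization and hybridization control scaling. Plain _at probe sets alone gave 12 rises (6 large, 6 small) and 4 falls (1 and 3), and 1 probe set per gene 38 rises (20 and 18) and 2 falls (0 and 2). Among members over a mean log2 signal of 12, 3 fell (0 large, 3 small), and with shared probe sets 162 rose; both settings were chosen after seeing the data. The median of members minus all was 0.12 with no filter, 0.21 among probe sets Present on all 6 arrays, 0.042 after quantile normalization, 0.055 with plain _at names, 0.20 by gene and 0.14 to 0.21 on leaving out 1 array each, the highest without mock replicate 3, against 0.16. The large minus small median was 0.073, 0.087 and -0.033 after quantile normalization, with plain names and by gene, and 0.0018 to 0.032 on leaving out 1 array each, the highest without Nup98::Nsd1 replicate 3. The counts ranged from 69 to 71 rises and 9 to 10 falls on leaving out 1 array each.

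Among named genes, quantile normalization turned Rplp0 to -0.080, Rpl41 to -0.046 and Rpl38 to -0.035. Hybridization control scaling turned Rplp0 to -0.12, Rplp2 to -0.009, Rpl11 to -0.0059, Rps4x to -0.056, Rpl22 to -0.061, Rpl41 to -0.12, Rpl38 to -0.11 and Rps29 to -0.069. Rpl12 was called only under the 4 other scalings and without Nup98::Nsd1 replicate 2, at -0.18. The cause of these changes was not tested. With the replicate number as a block, the replicate block gave 71 rises and 10 falls among the members and changed no call of a named gene. No count changed by over 1.5 times with a pseudocount, the matrix values, no trend or array weights.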
